A study of Homo sapiens with 3 samples.

Results

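Transcripts of 36 human genes that act in the nucleolus and in the making of ribosomes were compared between HCT-116 cells with reduced *APC* expression and control cells. The genes were chosen as a named list around *NCL*, which encodes nucleolin, and all 36 were found by their symbol among the 23131 rows of the expression table. HCT-116 is a colon carcinoma line, and the labels describe it as APC wild-type with the mutation CTNNB1ΔSer45, so that both libraries compared here carry a stabilised β-catenin. One library came from cells that received a pool of anti-*APC* siRNA in 2 transfections and were harvested 48 hours after the second. The control library is titled untransfected, while its treatment label names the transfection reagent alone (mock). The remaining library of the series, from cells given pooled scrambled siRNA, was not analysed here, so an effect of siRNA delivery cannot be told apart from that of *APC* silencing. There was 1 library per condition of 1 cell line. No difference below therefore has a replicate check, no test was possible, and the words higher and lower describe this pair of libraries only.

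The nucleolus is where RNA polymerase I transcribes the ribosomal RNA genes. The precursor rRNA is then cut, methylated and pseudouridylated under the guidance of small nucleolar RNAs (snoRNAs), and it is folded with ribosomal proteins into small and large subunits by a long series of assembly factors. Many of these genes are known to follow cell growth and the transcription factor MYC, a target of WNT signaling in the intestinal epithelium, which is why they are of interest after loss of APC.

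Levels are given as FPKM, read numbers scaled to the length of the transcript and to the mapped reads of the library, which allows genes of different length to be set side by side but shows a share of the library and not an amount per cell. In a bulk sample, fewer expressing cells and less RNA per cell cannot be told apart. From the steps between the lowest FPKM values, about 25600000 reads stand behind the untransfected library and about 23400000 behind the anti-*APC* library. *APC* itself stood at 3.43 FPKM after silencing and at 9.15 FPKM in the control, so that 37.5% of its level remained (log2 ratio -1.41). Among 12 markers of colon epithelium, 7 had at least 1 FPKM in both libraries, and all 7 had lower values with anti-*APC* siRNA, from *CDX2* (6.77 against 7.33 FPKM) and *EPCAM* (170 against 190 FPKM) to *CDH1* (12.1 against 19.0 FPKM) and *ELF3* (8.90 against 23.3 FPKM). Of all 11815 rows with at least 1 FPKM in both libraries 6898 were lower. The list of 12 summed to 1303 FPKM with and 1673 FPKM without anti-*APC* siRNA. Its members *CDX1*, *VIL1*, *CDH17*, *LGALS4* and *TSPAN8* were below 1 FPKM in both libraries. Of 12 markers of blood, endothelial and fibroblast cells, 9 were below 1 FPKM in both libraries, *PTPRC* and *PECAM1* among them, and that list summed to 10.2 and 14.3 FPKM. Its other 3 markers were divided. *CD68* (5.01 against 8.91 FPKM) and *ACTA2* (1.85 against 2.20 FPKM) were lower with anti-*APC* siRNA, and *COL1A1* (3.08 against 2.85 FPKM) was higher. The part of these marker differences in the results below was not tested.

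*NCL* lies on the minus strand of chromosome 2, and its row in the table covers chr2:232319459-232329205 of hg19. Its introns hold 3 snoRNA genes that have rows of their own at the same locus. The following 2 are shown because their rows are listed at 0 with anti-*APC* siRNA. Both are box C/D snoRNAs, which guide rRNA methylation by fibrillarin, and capitals mark the letters TGATGA of box C near the 5′ end and CTGA of box D near the 3′ end. *SNORD20* lies in intron 11 at chr2:232321155-232321234 and *SNORD82* in intron 5 at chr2:232325082-232325151 (GRCh37, minus strand, GENCODE).
SNORD20: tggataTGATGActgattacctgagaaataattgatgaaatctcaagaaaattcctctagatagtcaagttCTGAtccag
SNORD82: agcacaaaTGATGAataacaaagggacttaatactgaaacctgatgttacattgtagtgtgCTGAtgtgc

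With 80 and 70 bases these RNAs are far shorter than the *NCL* transcript, for which the canonical GENCODE model has 3924 bases.

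The 250 bases before the *NCL* start site are given next because promoter elements of the genes were also searched. The second sequence is that of *UTP20*, a gene whose promoter holds the E-box CACGTG, shown in capitals, the site bound by MYC with MAX and by USF factors. Both are from RefSeq on GRCh38.p14 and are written 5′ to 3′ along the strand of the gene. They cover chr2:231464485-231464734 on the minus strand and chr12:101279855-101280104 on the plus strand.
NCL: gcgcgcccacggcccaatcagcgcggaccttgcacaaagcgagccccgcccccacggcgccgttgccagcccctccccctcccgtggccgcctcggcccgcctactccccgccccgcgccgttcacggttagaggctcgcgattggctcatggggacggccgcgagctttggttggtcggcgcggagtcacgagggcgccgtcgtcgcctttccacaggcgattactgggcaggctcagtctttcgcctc
UTP20: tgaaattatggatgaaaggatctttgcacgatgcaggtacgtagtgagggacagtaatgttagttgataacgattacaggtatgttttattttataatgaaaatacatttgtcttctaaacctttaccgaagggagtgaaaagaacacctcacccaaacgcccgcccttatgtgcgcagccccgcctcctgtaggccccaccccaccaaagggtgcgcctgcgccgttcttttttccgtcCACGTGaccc

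The *NCL* stretch has 72% G and C and no CACGTG, while that of *UTP20* has 47.6% G and C and its E-box begins 10 bases before the start site.

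Among the abundant nucleolar proteins, *NCL* was the most highly expressed of the 36 genes in both libraries. Its level was 1174 FPKM after silencing of *APC* and 1095 FPKM in the control, which is 7.24% higher (log2 ratio 0.10). The level of *NCL* in the untransfected library exceeded that of 99.3% of the rows with at least 1 FPKM in both libraries. About 110023 reads in the untransfected library stood behind it, so that counting error alone gives a 95% interval of 0.09 to 0.11 for the log2 ratio. This interval covers counting error only, and the spread between cultures is not known.

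*NPM1*, which encodes nucleophosmin, a chaperone for ribosomal proteins and histones, stood directly behind *NCL* in level and next to it in ratio. It had 1150 FPKM with and 1073 FPKM without anti-*APC* siRNA, a difference of 7.22%. The ratio of *NCL* to *NPM1* was 1.02 in each library. Both genes together made up 41.2% of the summed FPKM of the 36 genes in untransfected cells and 41.8% with anti-*APC* siRNA, and *NCL* was 3.39 times as high as the gene that followed them, *FBL*, in the untransfected library.

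The remaining genes of this group were also higher with anti-*APC* siRNA. *NOLC1*, a chaperone of snoRNPs (the snoRNA-protein particles), had 272 against 243 FPKM, which is the largest difference of the group with a log2 ratio of 0.16. *GNL3*, the GTP-binding protein nucleostemin, had 229 against 218 FPKM, the smallest of the group with a log2 ratio of 0.07. The zinc finger protein gene *LYAR* had 106 against 99.4 FPKM. All 5 genes of the group were thus between 1.05-fold and 1.12-fold of the untransfected level, and for all 5 the counting interval lay above 0. Among all rows with at least 20 FPKM in both libraries 50% were higher. The counting interval lay above 0 for 34.9% of those with a canonical transcript length.

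**Figure D1:**
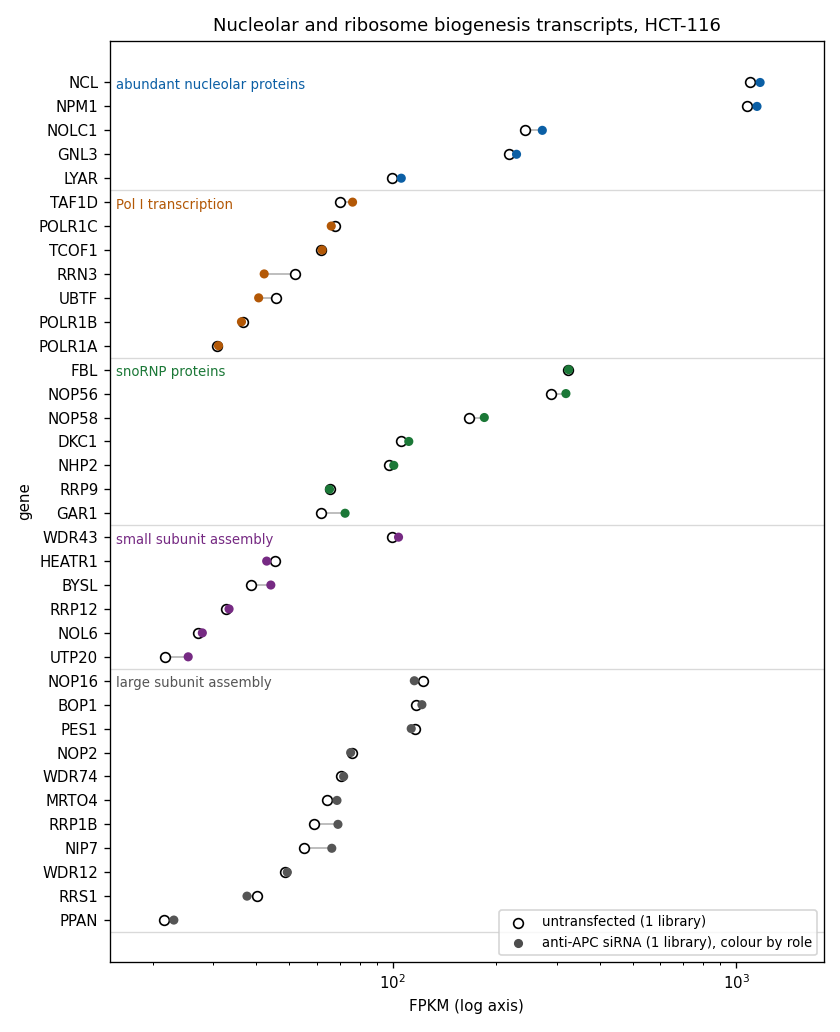
FPKM (log axis) of the 36 genes, grouped by role and ordered by level in untransfected cells. Open circles are the untransfected library, filled circles the anti-APC siRNA library, 1 library each. NCL and NPM1 lie between 1073 and 1174 FPKM in both libraries, and the 2 circles of each gene lie close together over the whole range down to PPAN at 21.5 and 23.0 FPKM.

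Several of the genes host snoRNAs in their introns. Whether the library preparation retained RNAs this short is not given in the sources used here. The values of these rows are therefore not read as levels of mature snoRNAs, and no counting interval is given for them. *SNORD20* is listed at 0 with anti-*APC* siRNA and at 145 FPKM without, and *SNORD82* at 0 and 119 FPKM. *SNORA75*, a box H/ACA snoRNA in intron 12, had 9.46 against 19.6 FPKM, a log2 ratio of -1.05. Of the 3, *SNORA75* alone has a value above 0 in both libraries, and it was lower where *NCL* was higher. All 269 rows marked as failed are listed at 0 in both libraries, so *SNORD20* and *SNORD82* are not among them. What their 0 in 1 library stands for is not known, and no direction is read for them. How reads were divided between a host gene and its short intronic RNAs was not tested.

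*NOP56*, a core protein of box C/D snoRNPs, had 319 FPKM with and 288 FPKM without anti-*APC* siRNA, a log2 ratio of 0.15. Its snoRNA rows *SNORD86* (7694 against 6762 FPKM), *SNORD56* (1599 against 1307 FPKM), *SNORD57* (1376 against 1243 FPKM), *SNORD110* (987 against 735 FPKM) and *SNORA51* (58.5 against 41.7 FPKM) were all higher as well, by 0.15 to 0.49 on the log2 scale. Of all 163 snoRNA rows above 0 in both libraries, 91 were higher and 72 lower, with a median log2 ratio of 0.11. *MIR1292*, whose hairpin overlaps an exon of *NOP56*, is listed at 312 FPKM with and 0 without anti-*APC* siRNA.

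At the remaining loci the rows were divided. *NOP58*, the partner of *NOP56* in the particle, had 185 against 166 FPKM, and its snoRNAs *SNORD11* and *SNORD70* had 134 and 56.7 FPKM with anti-*APC* siRNA and are listed at 0 without. At *GNL3*, *SNORD19* was lower (308 against 557 FPKM), whereas *SNORD19B* (614 against 423 FPKM) and *SNORD69* (254 against 156 FPKM) were higher. The coding rows at the *GNL3* locus were lower, with 22.4 against 30.3 FPKM for *GLT8D1*, which overlaps an exon of *GNL3* on the opposite strand, and a log2 ratio of -0.24 for *SPCS1* (98.0 FPKM with anti-*APC* siRNA). At *DKC1*, *SNORA36A* is listed at 20.4 FPKM with and 0 without, and *SNORA56* had 41.2 against 44.2 FPKM. In all, 20 snoRNA rows share the locus of 7 of the 36 genes. Of these rows, 10 were above 0 in both libraries, 7 of them higher and 3 lower with anti-*APC* siRNA, and 5 were at 0 in both. Another 5 were at 0 in exactly 1 library, which is 25% of the 20, beside 12.0% of all 351 snoRNA rows. Of the 10, *SNORA75*, *SNORD19* and *SNORD69* (30%) differed by at least 1.5-fold, beside 36.8% of the 163 snoRNA rows above 0 in both libraries in the whole table.

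**Figure D2:**
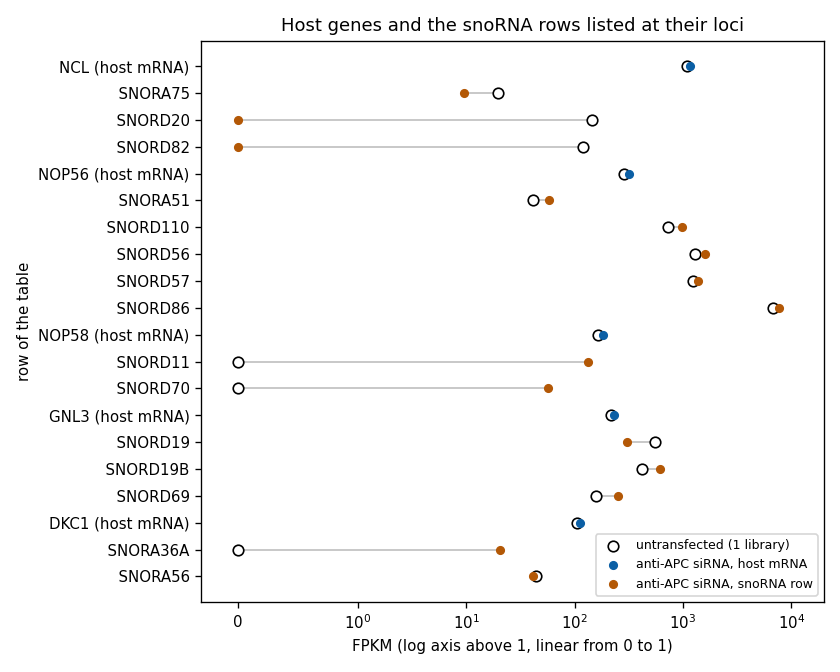
FPKM of 5 host genes and of the snoRNA rows at their loci that were above 0 in a library. The axis is logarithmic above 1 FPKM and linear below, open circles are untransfected cells, and filled circles are anti-APC siRNA (1 library each). SNORD20 and SNORD82 sit at 0 with anti-APC siRNA, SNORD11, SNORD70 and SNORA36A sit at 0 without, and each of the 5 NOP56 snoRNAs is slightly higher with anti-APC siRNA.

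Of the 7 genes of Pol I transcription 3 were higher and 4 lower with anti-*APC* siRNA, a split that became 5 and 2 after the median of all rows was subtracted and 4 and 3 under upper quartile scaling. *RRN3* and *UBTF* were lower under all 3 scalings. *RRN3*, which brings Pol I to its promoter, had 42.2 against 51.7 FPKM. Its log2 ratio of -0.29 (counting interval -0.36 to -0.23) was the lowest of the 36 genes. *UBTF*, the factor that binds and opens the rRNA genes, came next with 40.7 against 45.5 FPKM and a log2 ratio of -0.16 (counting interval -0.22 to -0.11).

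*RRN3* has partial copies on the same chromosome with rows of their own, so its value is uncertain. The copies had log2 ratios near that of *RRN3* itself: -0.21 for *RRN3P1* (7.63 against 8.83 FPKM), -0.29 for *RRN3P2* (8.67 against 10.6 FPKM) and -0.32 for *RRN3P3* (3.20 against 4.01 FPKM). Summed over all 4 rows the log2 ratio was -0.29, and *RRN3* itself gave 42.2 of the summed 61.7 FPKM with anti-*APC* siRNA. How reads were divided among these rows was not tested. The copies and the sum are therefore no separate check on the direction of *RRN3*.

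The polymerase subunits were nearly level. *POLR1A*, the largest subunit, had 31.1 against 30.7 FPKM, *POLR1B* had 36.2 against 36.6 FPKM, and *POLR1C*, which Pol I shares with Pol III, had 66.2 against 67.7 FPKM. *TCOF1*, which encodes the scaffold protein treacle, had 62.2 against 61.7 FPKM. For these 4 genes the counting interval included 0. *TAF1D*, a subunit of the promoter selectivity factor, had 76.3 against 70.1 FPKM and the highest log2 ratio of the group, 0.12. The median log2 ratio of the 7 genes was -0.02.

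Of the 7 genes for snoRNP proteins 6 were higher with anti-*APC* siRNA, beside 50% of all rows with at least 20 FPKM. Their median log2 ratio was 0.07. The box C/D proteins *NOP56* and *NOP58* had log2 ratios of 0.15 each, whereas *FBL*, the methyltransferase fibrillarin of the same particle, had 325 against 323 FPKM and a log2 ratio of 0.01. *RRP9*, which belongs to the snoRNP for the first cuts of the precursor, was the lowest of the group and nearly level (65.4 FPKM in each library). Among the box H/ACA proteins, *GAR1* had 72.6 against 61.6 FPKM, the second highest ratio of all 36 genes (log2 ratio 0.24, counting interval 0.14 to 0.34). The pseudouridine synthase *DKC1* had 111 against 106 FPKM and *NHP2* had 101 against 97.6 FPKM.

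The median log2 ratio of the 6 genes for small subunit assembly was 0.05, and 5 were higher, beside 50% of all rows with at least 20 FPKM. *UTP20*, a very large protein of the small subunit processome, had the lowest level of the group and its highest ratio, with 25.3 against 21.6 FPKM (log2 ratio 0.23, counting interval 0.17 to 0.28). *BYSL*, which acts later in the maturing particle, had 44.1 against 38.6 FPKM and a log2 ratio of 0.19. The processome genes *WDR43* (104 against 99.2 FPKM) and *NOL6* (27.9 against 27.1 FPKM) and the export factor *RRP12* (33.3 against 32.6 FPKM) differed by less than 5% each. *HEATR1*, which is needed both for processing and for Pol I transcription, was the one lower gene, with 42.9 against 45.5 FPKM (log2 ratio -0.08). Its locus in the table also holds *LGALS8* on the opposite strand (15.1 against 13.7 FPKM), and the use of strand in counting is not given in the sources used here.

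The largest group, large subunit assembly, was divided, with 7 of 11 genes higher, 4 lower and a median log2 ratio of 0.03. Of all rows with at least 20 FPKM 50% were higher. *NIP7*, listed here under large subunit assembly, had the highest ratio of all 36 genes, with 66.4 against 55.3 FPKM, 20.2% above the control (log2 ratio 0.27, counting interval 0.19 to 0.34). *RRP1B* followed with 69.2 against 59.1 FPKM (log2 ratio 0.23). At the locus of *NIP7* the rows of *COG8* (23.4 against 24.2 FPKM) and *PDF* (13.8 against 16.5 FPKM) were lower. The division of reads among the rows of this locus was not tested, and the counting interval of *NIP7* does not cover it.

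The lowest ratios of the group belonged to *RRS1* (37.6 against 40.1 FPKM, log2 ratio -0.09) and *NOP16* (115 against 123 FPKM, log2 ratio -0.09). The PeBoW complex, whose 3 subunits are needed for cutting and folding the large subunit rRNA, differed little: *BOP1* had 122 against 117 FPKM and *WDR12* 49.3 against 48.4 FPKM, while *PES1*, at 113 FPKM with anti-*APC* siRNA, had a log2 ratio of -0.04 (counting interval -0.09 to 0.01), all within 5%. After the median of all rows was subtracted all 3 were higher, beside 60.3% of the rows with at least 20 FPKM. *NOP2*, an rRNA methyltransferase, had 75.4 against 76.2 FPKM, *WDR74* 71.9 against 70.6 FPKM and *MRTO4* 68.7 against 64.5 FPKM.

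*PPAN* had the lowest level of the 36 genes in both libraries, 23.0 against 21.5 FPKM, a log2 ratio of 0.10. Its exons are shared with a read-through transcript, *PPAN-P2RY11*, whose row had 11.6 against 15.4 FPKM. The sum of both rows was 34.6 FPKM with and 36.9 FPKM without anti-*APC* siRNA, a log2 ratio of -0.09, so the direction of *PPAN* turned when the rows were added. The locus also holds *EIF3G* (111 against 106 FPKM) and *P2RY11* (3.77 against 4.19 FPKM). At *BOP1* the row of *SCXA* was below 1 FPKM in both libraries.

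**Figure D3:**
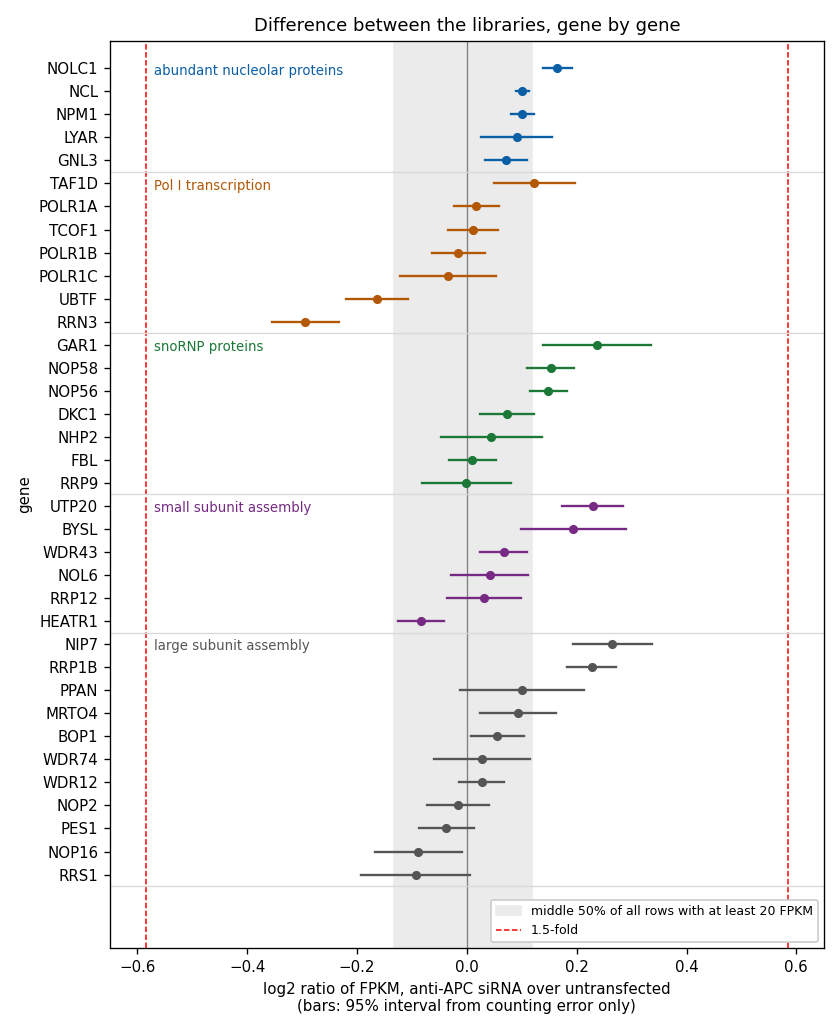
Log2 ratio of FPKM, anti-APC siRNA over untransfected, for the 36 genes, grouped by role and ordered within each group. Bars are 95% intervals from counting error only, the grey band is the middle 50% of all rows with at least 20 FPKM in both libraries (-0.13 to 0.12), and dashed lines mark 1.5-fold. The genes lie between RRN3 at -0.29 and NIP7 at 0.27, and none reaches a dashed line.

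Taken as a set, none of the 36 genes differed by 1.5-fold or more in either direction. In the table as a whole 8.04% of the 11815 rows with at least 1 FPKM in both libraries did so, and 4.2% of the 4449 rows with at least 20 FPKM, a limit that all 36 genes pass. With 36 genes a count of 0 lies near that background. With a limit of 1.1-fold, 8 genes were higher (*NIP7*, *GAR1*, *UTP20*, *RRP1B*, *BYSL*, *NOLC1*, *NOP58* and *NOP56*) and 2 lower (*RRN3* and *UBTF*), beside 21% higher and 24% lower of the rows with at least 20 FPKM.

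The counting interval lay above 0 for 17 genes, below 0 for 4 and included 0 for 15. In the rows of the table with at least 20 FPKM and a canonical transcript length, it lay above 0 for 34.9% and below 0 for 34.8%. Counting error was therefore small against the differences among most well expressed genes, and the 58.3% of the 36 genes past it compare with 69.7% of those rows.

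With anti-*APC* siRNA 26 of the 36 genes were higher and 10 lower, 72.2% higher, beside 50% of the rows with at least 20 FPKM and 41.6% of those with at least 1 FPKM. After the median log2 ratio of the rows with at least 1 FPKM (-0.05) was subtracted, 31 were higher and 5 lower, beside 60.3% higher of the rows with at least 20 FPKM, since the subtraction raises every gene alike. The median log2 ratio of the 36 genes was 0.05, a 1.04-fold level, against 0.00 for rows with at least 20 FPKM. The middle 50% of the genes ran from 0.00 to 0.11, narrower than the -0.13 to 0.12 of those rows, and 82.3% of those rows fell inside the full range of the 36 genes. A log2 ratio above that of *NCL* was seen in 28.1% of them.

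The summed FPKM of the 36 genes was 5555 with anti-*APC* siRNA and 5256 without, a ratio of 1.06. Without *NCL* and *NPM1* the ratio of the sums was 1.05 and the median log2 ratio 0.04. The 26 genes that are alone at their locus had a median log2 ratio of 0.03, and 9 of them were lower.

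A further 136 genes with roles in Pol I transcription, snoRNPs, subunit assembly and the rRNA-processing exosome were examined in the same way. One of them, *NOL8*, is marked as failed and listed at 0 in both libraries. None of the other 135 differed by 1.5-fold. Their median log2 ratio was 0.06 and 90 were higher (66.7%), 45 lower. At 1.1-fold 37 were higher and 14 lower. In both libraries 131 of the 135 had at least 10 FPKM. Of all rows at that level 4.22% differed by 1.5-fold and 47.1% were higher, with a median log2 ratio of -0.01. At 1.1-fold 20.7% of those rows were higher and 27.8% lower.

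The group medians were 0.12 for the exosome (12 of 15 genes higher), 0.07 for small subunit assembly (33 of 44), 0.07 for large subunit assembly (32 of 49), 0.06 for Pol I transcription (9 of 17) and -0.04 for snoRNP proteins (4 of 10). The extremes, named after their values were seen, were *SBDS*, which with its partner EFL1 frees the new large subunit of the factor EIF6 (86.3 against 66.6 FPKM, log2 ratio 0.37), and *BAZ2A*, a silencer of rRNA genes (26.0 against 31.9 FPKM, log2 ratio -0.29).

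**Figure D4:**
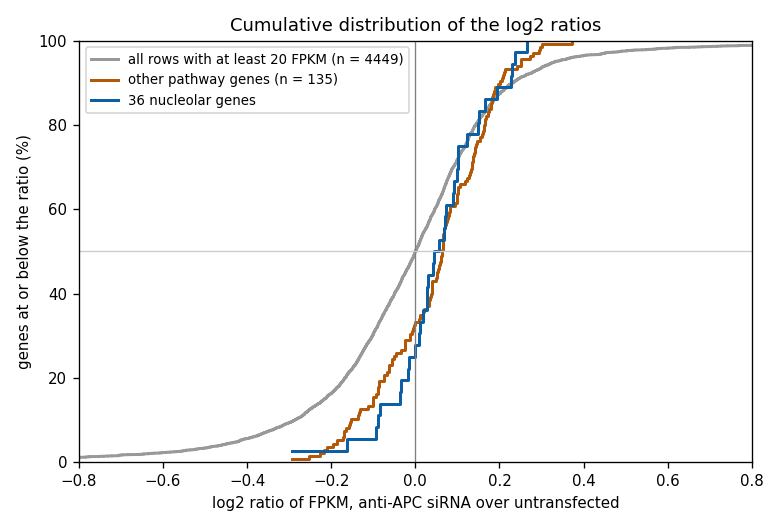
Cumulative share of genes (percent) against the log2 ratio of FPKM, anti-APC siRNA over untransfected, for the 36 nucleolar genes, 135 other pathway genes and the 4449 rows with at least 20 FPKM in both libraries. Both pathway curves lie to the right of the curve of all rows at the 50% line (medians 0.05 and 0.06 against 0.00) and are steeper than it.

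RefSeq promoter sequences were found for 29 of the 36 genes, and the 250 bases before each listed start were searched on both strands. A gene was counted once if any of its listed windows held the motif. The E-box CACGTG was present for 2 of the 29, *LYAR* and *UTP20*, which is 6.9%, beside 7.73% of all 27305 genes with such sequences. Among the other pathway genes it was present for 21 of 120, or 17.5%, and the median log2 ratio of those 21 was 0.03, against 0.06 for the 99 without. The core of the TCF site, CTTTGAT, was found for *POLR1A* alone (3.45%, beside 2.75% of all genes). The pattern TGANTCA, which is looser than the AP-1 site TGASTCA of the paper and includes it, was found for none of the 29. It was present for 8.06% of all genes, a share that holds for the looser pattern only. These are matches of letters in a short window and say nothing of binding, and a site outside the window would not be seen.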

How the data were processed

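The authors prepared single-read TruSeq libraries from HCT-116 cells, assigned reads to transcripts with Cufflinks and obtained FPKM per gene with Cuffdiff. The deposited values are FPKM of 1 anti-*APC* siRNA and 1 untransfected library on hg19, per the labels. Tool versions, aligner, annotation and use of strand are not given in the sources used here. The deposited table also holds the authors' own log ratio, statistic, p-value and q-value, which were not used.

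Log2 ratios (anti-*APC* siRNA over untransfected) were computed without a pseudocount (pandas 2.3.3 and numpy 2.4.6 under Python 3.11.15, plots with matplotlib 3.10.9). With 1 library per condition no test was made, and called means at least 1.5-fold where both libraries had at least 1 FPKM. The 36 genes and the other lists were chosen with earlier results of these data known. Named in full were *APC*, *NCL*, genes past 1.5-fold and the extremes of each role group, with the coding and snoRNA rows above 0 that share a locus.

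Among 1689 rows under 0.2 FPKM and alone at their locus, 320 shared 1 ratio within 0.01 (log2 0.13), that of equal read numbers. Transcript lengths (GENCODE 44, GRCh37) then gave the depth from the 55 rows in the densest window 10% wide. Reads per gene and the 95% counting intervals rest on this estimate and on the canonical transcript. For 1 gene without a canonical tag, *BOP1*, the longest transcript was taken. Counting intervals cover counting error only. Loci were converted to 1-based starts, and for 22 of 36 genes a locus boundary is an annotated transcript end. Of the other pathway genes 13 were matched by an older symbol. The functions were tested on simulated data in which the transcript lengths were known exactly, so that test is no check on the lengths used here.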

Additional observations from a re-analysis of the deposited data

How the results depend on the processing

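None of the 36 genes passed the fold limit under either pseudocount, either scaling, any FPKM minimum, the removal of shared loci, or limits of 25% or 2-fold. A limit of 1.1-fold, chosen after the data were seen, gave 10 of the 36 and 51 of the other pathway genes. That limit was passed by 45% of all rows with at least 20 FPKM and by 48.6% of those with at least 10 FPKM. Of the other pathway genes 1 passed the limit of 25%, for which no share of all rows was computed. Subtraction of the median of all rows moved the median log2 ratio of the 36 genes from 0.05 to 0.10, that of the other pathway genes to 0.11 and that of *NCL* to 0.15, and left 5 lower genes in place of 10. Upper quartile scaling gave 0.078, 0.091 and 0.13. With rows alone at their locus the median of the 36 genes was 0.027. For *APC* the log2 ratio was -1.19 once 1 FPKM was added to both values. Leaving out *RRN3* and the 5 genes that share a locus with a protein-coding row, also chosen after the data were seen, gave a median of 0.04 with 8 of 30 lower. The scrambled siRNA library as control was not run. *APC* was not evaluated at a minimum of 10 FPKM, where its row drops out. No paired analysis was possible because each condition has 1 library. Depth limits little here: the counting error of the log2 ratio ran from 0.0062 (*NCL*) to 0.058 (*PPAN*), and it does not stand for the unknown spread between cultures.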

Other observations

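The table has 351 rows for box C/D and H/ACA snoRNAs in all. Of these, 163 were above 0 in both libraries, 16 were listed at 0 only in untransfected cells, 26 only with anti-*APC* siRNA and 146 in both. Among the 163, 91 were higher and 72 lower with anti-*APC* siRNA, and the median log2 ratio was 0.11. Within 10000 bases of *TAF1D* on chromosome 11, 8 snoRNAs have loci of their own, 6 of them higher with anti-*APC* siRNA and 2 lower. *SNORD5* (1756 against 1266 FPKM), *SNORA40* (625 against 526 FPKM), *SNORA8* (345 against 248 FPKM), *SNORA32* (280 against 244 FPKM), *SNORA25* (191 against 143 FPKM) and *SNORA1* (123 against 69.6 FPKM) were higher, while *SNORA18* (369 against 512 FPKM) and *SNORD6* (229 against 395 FPKM) were lower.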
